A study of Mus musculus with 88 samples.

Results

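Protein replacement was followed in mock-treated mouse dendritic cells, that is, in cells that received fresh labelled medium and no stimulus. Members were chosen by condition and digest: the 44 mock samples digested with trypsin, of 88 samples in the series, which make up 22 mass spectrometry runs of 42 trypsin runs. The runs cover 0 h and 10 later times with 2 replicates each: hourly harvests from 1 to 6 h, and harvests at 0.5, 9, 12 and 24 h. All cells were primary bone marrow cultures of female C57BL/6J mice, grown with the growth factor GM-CSF and used at day 9 of culture. They had grown in medium with medium-weight arginine and lysine, were pooled, and were moved at 0 h to heavy arginine and lysine. Each harvest was mixed with a common batch of unlabelled, light cells of the same kind. The LPS-treated runs (40 samples) and the AspN and LysN digests (4 samples) are not part of this comparison, except that the latter give a second measure of abundance. The design text names harvests up to 12 h, whereas sample titles also give 24 h, so counts for most lists are also given without the 24 h runs. The labels do not say whether replicates were separate cultures or animals. Each p-value rests on the scatter of runs about a fitted line. This scatter holds run-to-run spread, which could therefore be technical, and any bend of the time course away from the line. Loss of a protein from living cells and loss of the cells that hold it cannot be told apart in a lysate.

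In pulsed labelling, a protein molecule made before the medium switch carries the medium-weight label (M) and one made afterwards carries the heavy label (H), so H/M rises as old molecules are removed or diluted and new ones are made. Cells remove proteins mainly through the proteasome, which degrades ubiquitin-tagged proteins, and through the lysosome, which receives surface proteins by endocytosis and organelles by autophagy. Dendritic cells take up and process antigen, and their surface receptors and antigen-presenting molecules cycle through endosomes. Secreted proteins also leave the cell pool by export. These are general facts about such cells and were not measured here.

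The deposited table listed 6266 protein groups. After 367 groups flagged as reverse hits, contaminants or identified only by a modified site were left out, 5899 remained, and 5106 of them had H/M in at least 1 mock run. Groups with H/M in 1 or more of the 2 runs at 0 h, in at least 12 of the 20 later runs and in at least 3 of the 4 runs at 12 and 24 h numbered 3292, and 3260 of them could be fitted. The other groups are not described. A run gave H/M for 3538 to 4030 proteins from 64685 to 91009 H/M pairs of peptide signals.

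H/M was not 0 at 0 h, when no heavy amino acid had been given. Its median over the fitted proteins was 0.157, and 775 proteins lay above 0.25. Across proteins the 0 h values of replicates 1 and 2 had a Spearman correlation of 0.56 (n = 3113 proteins, a description across proteins that share each run). Each protein's mean 0 h value was therefore subtracted before the share of new protein was computed as 100 × (1 − 1/(1 + H/M − H/M at 0 h)). A negative share means that H/M had fallen below the 0 h value. The slope of −log2(1 + H/M − H/M at 0 h) on time gave a replacement rate. Its inverse gave the time to replace 50% of a protein on the fitted line, called the half-time here. Where the new share levels off before 24 h, this half-time can be longer than the time at which 50% new was measured. The new share rises when old protein is lost and also when new protein is added to a growing total. Replacement below means this rise of the new share, and levels of old and total protein are given apart from it. No growth rate was subtracted. Over the proteins measured in all runs the median H/M was 0.145 and 0.135 at 0 h in replicates 1 and 2, 0.168 and 0.164 at 6 h, 0.243 and 0.217 at 12 h, and 0.371 and 0.358 at 24 h. The median new share was 1.94% and 1.64% at 6 h, 8.12% and 6.10% at 12 h, and 17.5% and 16.6% at 24 h. Replicate 1 lay above replicate 2 at every time after 0 h. The gap was widest at 5 h, with 3.93% against 1.60%, and at 9 h, with 6.39% against 3.97%.

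Most of the mock proteome was replaced slowly. Of 3260 proteins, 2234 (68.5%) had a slope below 0 at an adjusted p under 0.05 (limma, Benjamini-Hochberg), 6 had a slope above 0, and 1020 were not called. The median half-time was 84.2 h, which is 17.9% replaced per 24 h. The middle of the distribution ran from 46.2 h (30.2% per 24 h) at the lower quartile of half-times to 162.5 h (9.73%) at the upper. The steepest 10% of slopes had half-times under 27.6 h, and the shallowest 10% had half-times above 611 h or slopes of 0 or more. At 24 h the mean new share passed 10% in 2439 of 3259 proteins, 25% in 1066, 50% in 225 and 75% in 16.

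To remove shifts that a run gives to all proteins, each run was also centred on its median protein. Relative to this median, 822 proteins (25.2%) were replaced faster and 672 (20.6%) slower, and 1766 were not called. Of the faster set 780 lay on the same side in both replicates fitted alone, and of the slower set 662 did. The slopes of the replicates fitted alone had a Spearman correlation of 0.60 across 3102 proteins. A difference in slope between replicates was called for 14 proteins (limma with a time by replicate term), and for 342 at an unadjusted p under 0.05. The faster set had a median half-time of 34.7 h, a median length of 488 residues and a median of 11 H/M pairs per run. The slower set had 220 h, 343 residues and 26.5 pairs. Without the 24 h runs, 450 of 3260 proteins were called faster and 234 slower, so this single time carried a large part of the calls. All list counts below stand beside these numbers. They are 25.2% faster and 20.6% slower over all runs, and 450 and 234 of 3260 without the 24 h runs, or up to 12 h. Below, faster and slower always mean called against the median protein at an adjusted p under 0.05. A value in brackets after a half-time is its 95% interval in h, and an adjusted p given for a protein is that of the limma test against the median protein. The interval belongs to the straight line over all times. It need not hold the half-time up to 12 h, and does not for Sdcbp, Csf1r, Cd74 and B2m.

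The marker proteins of this comparison were among the most quickly replaced. Syntenin (Sdcbp), an adaptor that binds syndecans and sorts cargo into exosomes, had H/M of 0.426 and 0.114 at 0 h in replicates 1 and 2. It rose through 0.642 and 0.536 at 3 h, 1.32 and 1.35 at 6 h and 2.01 and 2.15 at 9 h to 3.25 and 3.74 at 12 h, and stood at 2.32 and 3.26 at 24 h. The replicates lay close together from 4 to 9 h and apart at 0 and 24 h. Its half-time over all times was 11.3 h (95% interval 8.56 to 16.5, adjusted p = 0.000114), and 5.39 h when the 24 h runs were left out.

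Csf1r, the receptor for the macrophage growth factor CSF-1, had H/M of 0.134 and 0.167 at 0 h, 0.0873 and 0.138 at 0.5 h, and 0.194 and 0.188 at 1 h. It then climbed to 0.892 and 0.882 at 3 h, 1.86 and 1.95 at 5 h and 2.74 and 2.51 at 9 h, and stayed at 2.97 and 2.39 at 12 h and 2.57 and 2.91 at 24 h. The share of new receptor thus rose mainly between 1 and 6 h, after a first hour in which H/M hardly moved. The half-time was 13.1 h over all times (8.96 to 24.2, adjusted p = 0.00405) and 5.74 h up to 12 h.

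Cd74, the invariant chain that escorts MHC class II molecules to endosomes and is cut there, rose from the first harvest. Its H/M went from 0.134 and 0.112 at 0 h to 0.347 and 0.364 at 0.5 h, 0.541 and 0.557 at 1 h and 0.919 and 0.997 at 2 h. It reached 2.67 and 2.77 at 12 h and was lower again, 2.26 and 2.19, at 24 h. Cd74 did not show the flat first hour of Csf1r. B2m, the light chain of MHC class I, followed Cd74 with less of a plateau: H/M was 0.131 and 0.138 at 0 h, 0.268 and 0.234 at 0.5 h, 0.816 and 0.835 at 3 h, 1.42 and 1.60 at 6 h, 2.08 and 2.30 at 12 h, and 2.39 and 2.85 at 24 h. The half-time of Cd74 was 19.8 h over all times (13.2 to 39.7, adjusted p = 0.0146) and 7.90 h up to 12 h. That of B2m was 15.0 h (11.5 to 21.3, adjusted p = 0.000122) and 7.84 h.

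Relative to the median protein, 3 of these 4 proteins rose in level while they were replaced. On the log2 scale, total protein (M plus H against the light cells, relative to the median protein) changed per 24 h by −0.06 ± 0.17 (SE, 22 runs) for Sdcbp, 0.40 ± 0.15 for Csf1r, 0.55 ± 0.10 for Cd74 and 0.48 ± 0.06 for B2m. Without the scaling of each run to its median protein, explained below, these values were −0.46, 0.00, 0.15 and 0.08.

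**Figure D1:**
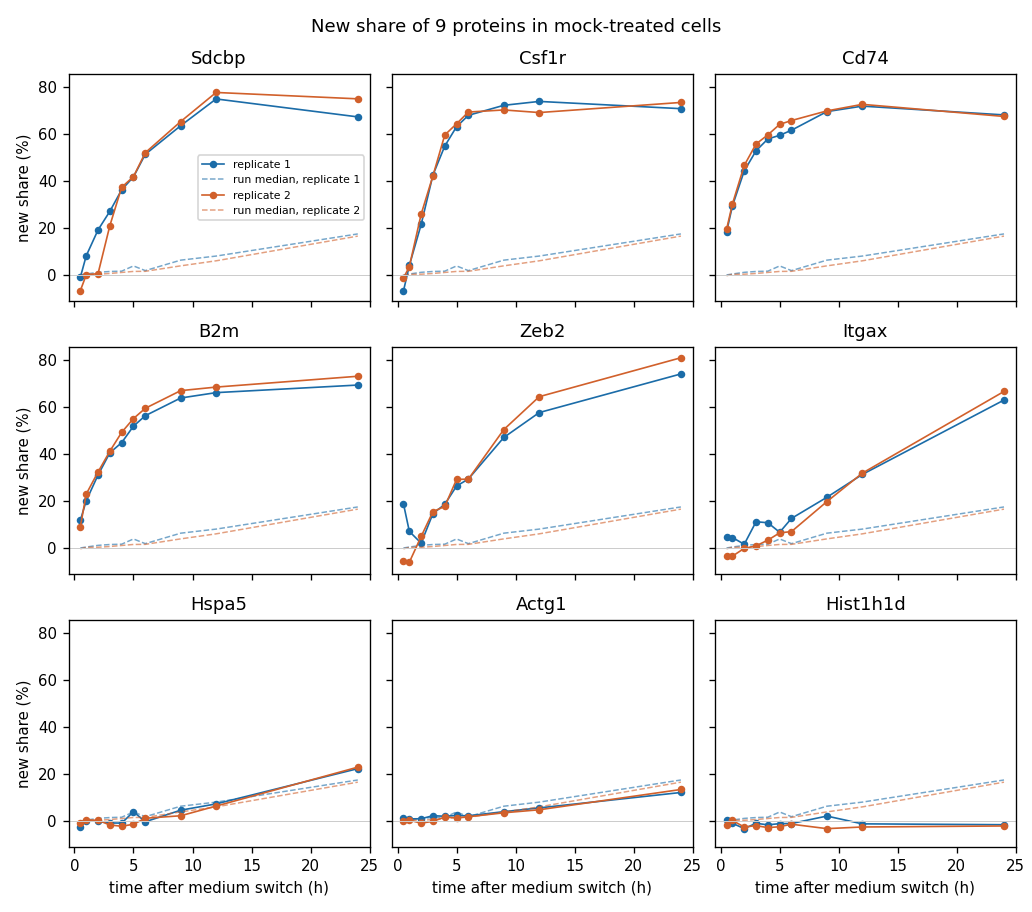
New share (%) against hours after the medium switch for 9 proteins in mock cells, with 1 line per replicate and dashed lines for the run medians. Sdcbp, Csf1r, Cd74 and B2m level off after 9 to 12 h, Zeb2 and Itgax still climb at 24 h, Hspa5 and Actg1 stay near the run median, and Hist1h1d stays near 0.

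Besides Sdcbp, the steepest slopes belonged to proteins of several kinds. The repressor Zeb2, a transcription factor of myeloid cells, had H/M of 0.145 and 0.0996 at 0 h, 0.539 and 0.538 at 6 h, 1.48 and 1.93 at 12 h, and 2.97 and 4.36 at 24 h. Its half-time was 10.4 h (9.32 to 11.7, adjusted p = 1.25e-10). Zbtb7a, another zinc-finger repressor, had 12.3 h (95% interval of 11 to 13.9 h), and the splicing factor Ik had 11.2 h (9.55 to 13.5). Both kept adding new protein to the last time, with new shares at 24 h of 62.9% and 74.9% for Zbtb7a and 78.3% and 71.4% for Ik.

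The secreted lipase Pla2g7, which cleaves platelet-activating factor, had new shares of 58.1% and 56.9% at 6 h, 69.6% and 72.8% at 12 h, and 72.4% and 75.2% at 24 h. The pore-forming Mpeg1 of phagocytes had 56.8% and 60.7%, 69.6% and 76.2%, and 75.0% and 73.5% at these times. Os9, an ER lectin that hands misfolded glycoproteins to degradation, had 34.3% and 32.8%, 56.3% and 60.6%, and 70.7% and 73.2%. Their half-times over all runs were 11.7 h, 12.6 h and 12.4 h. Cyth4 (an exchange factor for ARF GTPases) had a half-time of 12.6 h and the complement receptor C5ar1 13.0 h, the latter from a median of 3 H/M pairs per run.

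The nominally shortest half-times rested on less. Edf1, a transcriptional coactivator, had 9.20 h (6.04 to 19.3), with H/M of 2.58 in replicate 1 and 13.6 in replicate 2 at 24 h. Far1 (9.46 h), an enzyme of ether lipid synthesis, had 0.168 and 1.01 at 0 h. The RNA helicase Ddx24 (9.64 h) had 0.997 and 0.656 at 0 h. All 3 proteins were measured from a median of at most 5 pairs per run.

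Surface receptors were replaced faster than most proteins. Of 29 fitted plasma membrane receptors and lectins (of 47 in the table), 18 were called faster and 2 slower, against 25.2% and 20.6% of all proteins, and the median share replaced per 24 h was 48.0%, against 17.9%. Next to Csf1r stood Fcer1g, the signalling chain of Fc receptors, with H/M of 0.114 and 0.248 at 0 h, 0.396 and 0.391 at 6 h, 0.999 and 1.06 at 12 h, and 2.15 and 2.91 at 24 h. The receptor tyrosine kinase Axl, which binds dying cells through Gas6, had 0.310 and 0.0925, 0.517 and 0.527, 1.06 and 1.15, and 1.85 and 2.23. Their half-times were 13.5 h (12.2 to 15.0, adjusted p = 3.96e-11) and 14.1 h (12.5 to 16.1, adjusted p = 1.21e-09). The scavenger receptor Cd36 had 15.3 h and the LPS co-receptor Cd14 had 26.5 h. Both groups called slower carry the name Il1rn, a secreted antagonist of the interleukin-1 receptor, so the list held no surface receptor called slower (a split made after its values were seen). In the fit up to 12 h, 17 of the 29 were called faster and none slower.

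All 7 fitted integrins of 10, the adhesion receptors of leukocytes, were called faster, with a median of 54.3% replaced per 24 h. Itgax (CD11c), a marker of dendritic cells, had new shares of 12.7% and 7.06% at 6 h, 31.3% and 31.9% at 12 h, and 62.9% and 66.6% at 24 h. Its half-time was 15.6 h (14.1 to 17.5). Itgam (CD11b), which is also on macrophages and neutrophils, was measured from 103.5 pairs per run and had 10.8% and 8.10%, 23.2% and 22.9%, and 48.4% and 49.7%. The beta-1 chain Itgb1 had a half-time of 21.0 h and Itga5 26.3 h, the slowest of the named chains. In the fit up to 12 h, 5 of 7 integrins were called faster.

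Antigen-presentation proteins were mostly fast. All 4 fitted MHC class II proteins were faster: the chains H2-Aa (17.8 h, 14.3 to 23.6) and H2-Ab1 (22.6 h, 18.3 to 29.6), Cd74, and the peptide exchange factor H2-DMb1 (27.4 h, 25.2 to 29.9). H2-Ab1 had H/M of 0.242 and 0.1003 at 0 h, 0.657 and 1.02 at 12 h, and 0.748 and 1.22 at 24 h, so that replicate 2 lay above replicate 1 late. Of 7 MHC class I pathway proteins 4 were faster and none slower. Up to 12 h, 4 class II and 3 class I proteins were called faster. B2m and the loading factor Tapbp (31.4 h, 24.2 to 44.8) were among the faster ones. The peptide transporter subunit Tap1 had H/M of 0.677 and 0.477 at 0 h and 0.865 and 0.353 at 24 h, with no difference from the median protein called (adjusted p = 0.50) and a lower 95% limit of its half-time of 35.8 h.

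Secreted proteins held both fast and slow members. Of 19 fitted (of 32), 12 were faster and 1 slower, with a median of 48.9% replaced per 24 h. The elastase Mmp12 had new shares of 69.1% and 74.2% at 6 h and 80.0% and 81.2% at 24 h. The complement component C1qb had 70.3% and 69.0% at 6 h and 73.7% and 73.9% at 24 h, and properdin (Cfp) had 65.0% and 66.8%, and 71.5% and 71.2%. For all 3, most of the new share seen at 24 h was present by 6 h. New share is not loss of old protein. Relative to the median protein, old protein (M/L) fell in 6 of the 19 secreted proteins and rose in 9. Without the scaling of each run these counts were 8 and 4. At the other end was the chemokine Ccl5, the 1 protein called slower. Its H/M was 0.359 and 0.999 at 0 h and 0.262 and 0.371 at 24 h, from a median of 4 pairs per run, with values of 1.13 and 1.89 at 1 h, 0.803 and 1.97 at 6 h, and 0.331 and 0.266 at 12 h in between. H/M thus rose in both replicates and had fallen below its 0 h value by 12 h, a course that a single slope does not describe. Without 24 h, 12 secreted proteins were faster and none slower.

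Transcription factors were replaced quickly as well. Of 23 fitted (of 44 in the table), 15 were faster and none slower, with a median of 42.1% replaced per 24 h, and 13 and none with the 24 h runs left out. Cebpb, a regulator of myeloid inflammatory genes, had new shares of 41.4% and 46.3% at 6 h, 62.4% and 62.8% at 12 h, and 66.6% and 63.3% at 24 h. The glucocorticoid receptor Nr3c1 rose more evenly, with 8.25% and 9.94%, 26.6% and 32.7%, and 54.9% and 53.3%. The half-times were 14.2 h (11.2 to 19.6) and 20.4 h (18.9 to 22.1). Relb, a subunit of NF-kappaB, had 19.04 h (15.9 to 23.7), whereas the subunit Nfkb1 had 82.6 h (61.4 to 126, adjusted p = 0.829), next to the median protein. Levels of Cebpb and Nr3c1 fell meanwhile, by 1.09 ± 0.12 and 1.05 ± 0.18 on the log2 scale per 24 h, though with the deposited normalised ratios the value of Cebpb was 0.27.

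Stress and quality-control lists stand beside 25.2% faster and 20.6% slower of all proteins. Of 18 cytosolic chaperones 7 were faster and 4 slower (median 20.5% per 24 h), the latter near the share of all proteins. Of 25 antioxidant enzymes 11 were faster and 9 slower (18.5%). Of 9 fitted peroxisomal proteins (of 19), 4 were faster and none slower (22.6%). Of 4 fitted inhibitors and unstable signalling proteins (of 16), 3 were faster and none slower (59.3%). These counts were 6 and 1, 5 and 2, 2 and none, and 4 and none with the 24 h runs left out, beside 450 and 234 of all 3260 proteins. Hmox1 counts in the antioxidant and inhibitor lists, and Cat in the antioxidant and peroxisomal lists. Sqstm1 (p62), an autophagy receptor that is itself degraded in autophagosomes, had new shares of 59.7% and 63.2% at 6 h and 65.9% and 67.5% at 24 h. Haem oxygenase Hmox1 had 31.4% and 33.3% at 6 h and 63.0% and 68.1% at 24 h, with a half-time of 14.5 h (12.8 to 16.6). The co-chaperones Bag3 (14.7 h) and Dnaja1 (21.9 h) and the peroxisomal catalase Cat (19.2 h, 18.1 to 20.3, adjusted p = 3.91e-15) were also faster. Cat was measured from 110 pairs per run, and its new share at 24 h was 54.1% and 55.5%. The apoptosis inhibitor Mcl1 had H/M of 0.181 and 0.201 at 0 h, 1.39 and 0.790 at 6 h, 2.17 and 1.35 at 12 h, and 1.95 and 1.24 at 24 h. It did not pass the test over all runs (adjusted p = 0.0576), and its replicates lay apart from 6 h on.

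The slow end of the proteome held chromatin proteins and subunits of large assemblies. All 6 linker histones and 9 of 10 core histones were slower, with medians of −5.24% and 0.64% replaced per 24 h. Linker histone Hist1h1d had H/M of 0.0787 and 0.0487 at 0 h, 0.0542 and 0.0512 at 6 h, 0.0527 and 0.0399 at 12 h, and 0.0492 and 0.0440 at 24 h, so no new histone was detectable above the 0 h value. The lower 95% limit of its half-time was 724 h. Histone genes have near-identical copies that share peptides, so a value belongs to a group of such copies and the assignment to 1 gene is uncertain. The variant H2afy rose slightly, from 0.0911 and 0.0770 to 0.115 and 0.135, with a half-time of 514 h (284 to 2679). Lamin B1 (Lmnb1), which lines the inner nuclear membrane, had 0.116 and 0.0972 at 0 h and 0.131 and 0.0892 at 24 h. Within the list of nuclear envelope proteins Sun2, which links the envelope to the cytoskeleton, differed: it was faster, with a half-time of 28.4 h (23.9 to 34.9) and new shares of 43.4% and 39.1% at 24 h. With the 24 h runs left out, 3 linker histones and 5 core histones were slower and none faster.

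A slope above 0 was fitted for 236 proteins (7.24%), which means that the fitted H/M fell between 0.5 and 24 h. Several of those called slower had started high. Oasl1, an interferon-induced relative of the oligoadenylate synthetases, had H/M of 0.801 and 0.906 at 0 h, 0.692 and 0.404 at 6 h, 0.504 and 0.932 at 12 h, and 0.553 and 0.367 at 24 h. Ifi205a, an interferon-induced DNA-binding protein, had 0.917 and 0.797 at 0 h and 0.691 and 0.788 at 24 h. The scaffold nucleoporin Nup133 had 0.426 and 0.449 at 0 h, falling in both replicates to 0.288 and 0.200 at 24 h. For these 3 proteins the slope gives no half-time. Their H/M at 0 h lay well above the median of 0.157.

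Mitochondrial lists held many slower and few faster proteins. Of 34 fitted enzymes of the TCA cycle and matrix, 27 were slower and 1 faster (median 7.66% per 24 h). Of 12 subunits of ATP synthase 9 were slower and none faster (0.83%), of 14 mitochondrial chaperones and proteases 10 and none (7.88%), and of 41 mitochondrial ribosomal proteins 15 and none (3.498%). Atp5b, the catalytic subunit of ATP synthase, had new shares of 10.1% and 10.8% at 24 h and a half-time of 155 h (131 to 189). The chaperonin Hspd1 had 1.59% and 1.82% and 553 h (302 to 3291). The TCA enzyme subunit Idh3a had H/M of 0.0999 and 0.131 at 0 h and 0.101 and 0.106 at 24 h, with a lower half-time limit of 797 h. Of 27 subunits of respiratory complex I 7 were slower and 1 faster (median 13.1% per 24 h), beside 20.6% and 25.2% of all proteins. The faster subunit, Ndufa7, had a half-time of 41.5 h (31.2 to 61.8) and new shares of 30.0% and 28.0% at 24 h. With the 24 h runs left out, 16 of the matrix enzymes, 7 of the ATP synthase subunits and 5 of the chaperones and proteases were slower. In that fit 3 of 41 mitochondrial ribosomal proteins and 1 of 27 complex I subunits were slower, beside 234 of all 3260 proteins. Faster was 1 complex I subunit, beside 450 of all proteins.

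Cytosolic ribosomal proteins were mostly slower. Of 33 small-subunit proteins 27 were slower (median 8.37% per 24 h), and of 40 large-subunit proteins 34 were (9.05%). No ribosomal protein was called faster. Rps12 had new shares of 5.30% and 3.85% at 24 h and a half-time of 418 h (246 to 1379). Rps27l, a paralogue of Rps27, had 82.0 h (64.9 to 111, adjusted p = 0.739). Rpl24 had H/M of 0.400 and 0.341 at 0 h and 0.316 and 0.189 at 24 h, with both 24 h values below those at 0 h. Fau, which is made as a fusion with a ubiquitin-like protein, had 83.0 h. Up to 12 h, 16 of 33 and 11 of 40 were called slower.

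The proteasome itself was slower than the median. Of 14 subunits of its catalytic 20S core 9 were slower, and of 21 subunits of its 19S regulator 10 were, with medians of 12.1% and 12.0% per 24 h and none faster. Without the 24 h runs 1 and 4 were slower, and 2 regulator subunits were faster, beside 234 slower and 450 faster of all 3260 proteins. The core subunit Psmb6 had a half-time of 105 h (88.6 to 130) and Psmb4 297 h, with H/M of 0.138 and 0.114 at 0 h and 0.227 and 0.249 at 24 h. Psmd4, the ubiquitin receptor of the regulator, had 71.2 h (53.7 to 106) and was not called (adjusted p = 0.425). All 8 subunits of the chaperonin TRiC were slower, between Cct7 at 148 h (121 to 191) and Cct6a at 308 h (195 to 740). Of 15 glycolytic enzymes 12 were slower and 1 faster. In the fit up to 12 h, 4 TRiC subunits and 8 glycolytic enzymes were slower and none faster. Phosphoglycerate kinase Pgk1 had new shares of 4.52% and 3.99% at 24 h and Eno1 had 4.54% and 4.40%, from 335.5 and 422 pairs per run. Of the glycolytic enzymes Ldhb alone was called faster (44.3 h, 32.0 to 71.6), but its H/M was 0.917 and 0.249 at 0 h and 0.416 and 0.460 at 24 h, below the 0 h value of replicate 1.

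Slopes spread less within complexes than over all proteins, but this was not particular to complexes. In 25 complexes with at least 5 fitted members, the standard deviation of slopes was 0.0013 to 0.0151 per h, against 0.0193 over all proteins, and it was below that value in all 25. In 15 of these complexes no member was called faster. Other lists were also below 0.0193, such as glycolytic enzymes (0.0055) and TCA cycle and matrix enzymes (0.0057). Some were above it, such as plasma membrane receptors and lectins (0.0247). The value over all proteins takes in extreme slopes (down to −5835% replaced per 24 h), while the quartiles were −0.0217 and −0.0062 per h. This is a description: the members of such lists also share abundance and length. In some lists only 1 or 2 members were faster. Nup50, a mobile protein of the nuclear pore, had a half-time of 39.5 h (31.5 to 52.7, adjusted p = 0.000995), in a list of 12 peripheral pore proteins of which 3 were slower and no other was faster (median 10.3% replaced per 24 h). The pore's structural scaffold had 4 of 12 members slower, none faster and a median of 2.00%. Sf3b1, the largest subunit of its splicing complex, had 31.2 h (27.5 to 36.1) and Prpf6, a tri-snRNP protein, 40.9 h (33.7 to 51.8). Both were faster in a list of 22 spliceosome proteins of which 12 were slower (median 10.2% per 24 h). Mcm4 had 34.0 h (25.4 to 51.2), and the other 5 subunits of the MCM replicative helicase were not called. The list of 26 other translation factors held 7 faster and 11 slower (13.2%), beside 25.2% and 20.6% of all proteins. Among the 7 was the initiation helicase Eif4a1, with 35.4 h (33.0 to 38.2, adjusted p = 8.38e-12) and 34.9% and 36.5% new at 24 h. With the 24 h runs left out, the spliceosome list held 1 faster and 4 slower proteins, the translation factors 5 and 3, the pore scaffold none and 1, and the pore periphery and MCM lists none of either.

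Endosomal and secretory compartments lay between these ends. Of 20 retromer and ESCRT proteins, which sort cargo in endosomes, 10 were faster and 1 slower (27.6% per 24 h), and without the 24 h runs 5 and none. Chmp1a had 34.8 h (29.4 to 42.7). Chmp2b, an ESCRT-III protein like Chmp1a, had 17.5 h, but with 10.497 h in replicate 1 and 48.1 h in replicate 2. Of 12 subunits of the V-ATPase, the pump that acidifies lysosomes, 7 were faster and 1 slower (23.9%), and without the 24 h runs 1 and 1. Relative to the median protein, their old protein (M/L) fell in 0 of 12 and rose in 2, and total protein rose in 10. Without the scaling of each run, 0 of these falls or rises were called. Atp6v1b2 had new shares of 3.91% and 5.76% at 6 h, 15.5% and 13.9% at 12 h, and 29.7% and 30.4% at 24 h. ER folding proteins were close to the median, with 5 of 22 faster and 3 slower (17.0%), and so were Golgi proteins, with 4 of 20 faster (17.2%). With the 24 h runs left out, 4 of the ER proteins were slower and none faster, and 2 of the Golgi proteins were faster. The ER chaperone Hspa5 (BiP) had new shares of −0.21% and 1.27% at 6 h, 7.37% and 6.45% at 12 h, and 22.3% and 22.98% at 24 h.

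Lysosomal hydrolases, the digestive enzymes of the lysosome, held faster and slower members. Of 40 fitted (of 46), 13 were faster and 12 slower, beside 25.2% and 20.6% of all proteins, with a median of 16.8% per 24 h. The fit up to 12 h gave 10 faster and 3 slower, beside 450 and 234 of all 3260 proteins. Lysosomal acid lipase Lipa had a half-time of 19.6 h (18.4 to 21.1), with new shares of 7.33% and 7.16% at 6 h and 53.3% and 52.8% at 24 h. The cysteine proteases Lgmn and Ctsb had 25.05 h (23.2 to 27.3) and 33.2 h (30.5 to 36.3). Galns, which degrades sulphated glycans, had no positive rate and was slower (adjusted p = 0.000356).

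**Figure D2:**
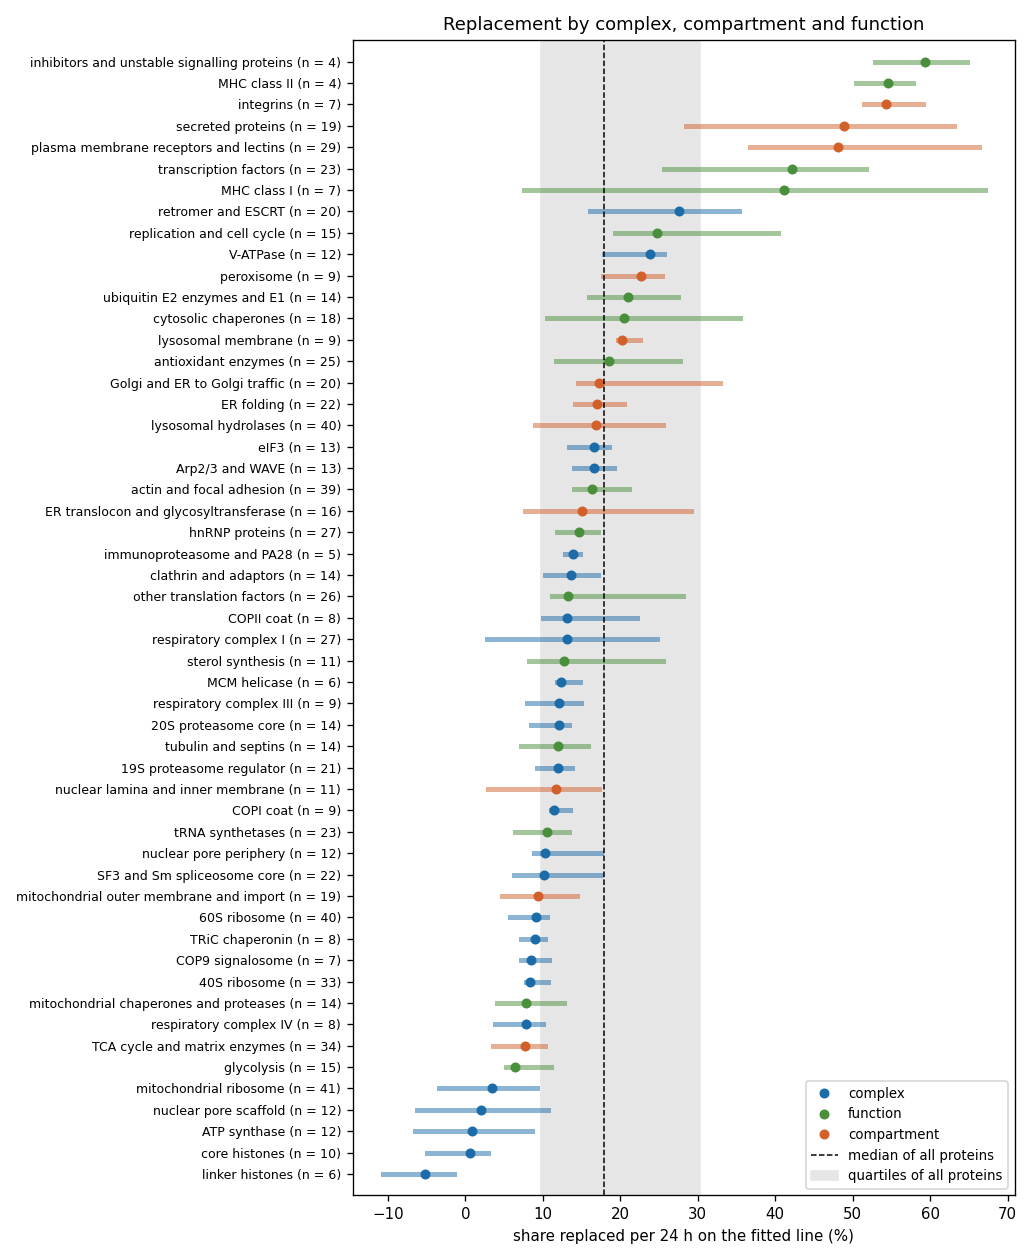
Share replaced per 24 h on the fitted line (%), by list: the dot is the median of the fitted members, the bar spans their quartiles, and colours mark complexes, functions and compartments. Integrins, MHC class II, receptors and secreted proteins lie right of the median of all proteins (17.9%), and histones, ATP synthase, glycolysis and ribosomes lie left of it.

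Abundant proteins were replaced more slowly. Abundance was taken as the iBAQ value (summed intensity divided by the number of theoretical peptides) of the M channel at 0 h. Across 3260 proteins the slope had a Spearman correlation of 0.23 with abundance, so that abundant proteins had shallower slopes. The points share the runs, and H/M and iBAQ share the M signal. From the AspN digest it was 0.19 (n = 2541) and from the LysN digest 0.17 (n = 2692). It was 0.21 (n = 3021) without ribosomal and mitochondrial lists. From the lowest to the highest of 5 equal bins of abundance the median half-time was 56.4, 69.1, 82.5, 95.7 and 119 h. The share of proteins called slower rose from 2.30% through 8.74%, 16.3% and 26.5% to 49.2%, while the share called faster stayed at 26.2%, 26.4%, 26.8%, 25.9% and 20.7%. Precision moved with abundance: the median number of H/M pairs was 4 in the lowest bin and 45 in the highest. In these bins the median standard error of the slope was 0.0083 and 0.0012 per h, and the median H/M at 0 h was 0.2497 and 0.0936. The part of precision in these call rates was not tested.

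The 5 most abundant proteins had half-times between 58.5 and 125 h. Actin (Actg1), measured from 938.5 pairs per run, had new shares of 12.2% and 13.5% at 24 h and a half-time of 123 h (105 to 148). The actin monomer binder Tmsb4x had 106 h (90.2 to 128) and the prolyl isomerase Ppia 125 h (108 to 149), and all 3 were slower. Tmsb10, a relative of Tmsb4x, had 86.3 h and was not called. S100a9, a calcium-binding protein of granulocytes, had 58.5 h (50.3 to 69.9) and was faster. Without the 24 h runs its half-time was 119 h, longer than the median half-time of 106 h in those runs.

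**Figure D3:**
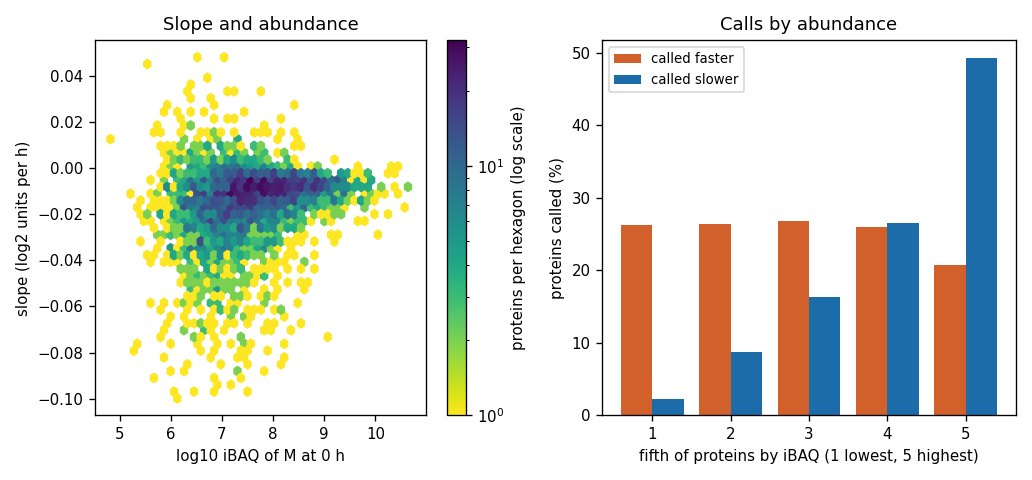
Left, slope (log2 units per h, more negative is faster) against log10 iBAQ of M at 0 h, with hexagons coloured by the number of proteins on a log scale (21 of 3260 proteins lie outside the slope axis). Right, percent of proteins called faster and slower in each of 5 equal bins of abundance: the slower share rises from 2.30% to 49.2%, the faster share stays between 20.7% and 26.8%.

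The 24 h runs were set against the line drawn by 0.5 to 12 h. They lay above it (less replaced than the line gives) in 45 proteins (1.38%) and below it (more replaced) in 48 (1.47%), by a term for the 24 h runs in limma. The median departure over all proteins was −0.06 on the log2 scale. Of the 45 above the line 43 were called faster, and their median new share was 59.3% at 12 h and 65.5% at 24 h. Their median half-time was 8.61 h up to 12 h and 14.9 h over all times. The highest departures named were those of Csf1r (2.53), Sdcbp (2.51), C1qb (2.21), Cfp (2.17) and Jak1 (2.15), a kinase of cytokine receptors.

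The 48 below the line had a median new share of 7.08% at 12 h and 26.3% at 24 h, and 30 of them were called faster. Zbp1 (−2.89), a sensor of Z-form nucleic acid, and the histone-fold protein Pole3 (−1.19) had the lowest departures, both from few pairs and with high 0 h values (H/M of 0.565 and 0.509 for Zbp1, 0.466 and 0.596 for Pole3). Lactoferrin (Ltf), a protein of neutrophil granules, had −0.60, with new shares of 27.7% and 28.5% at 12 h and 62.8% and 63.4% at 24 h. The class I myosin Myo1e had −0.48, with 9.60% and 9.33% and then 39.7% and 47.0%, and Itgax had −0.47. The counts depended on the early runs: without those before 4 h, 19 lay above and 1 below, and with replicate 1 or replicate 2 left out 11 or 12 lay above and 7 or 2 below.

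**Figure D4:**
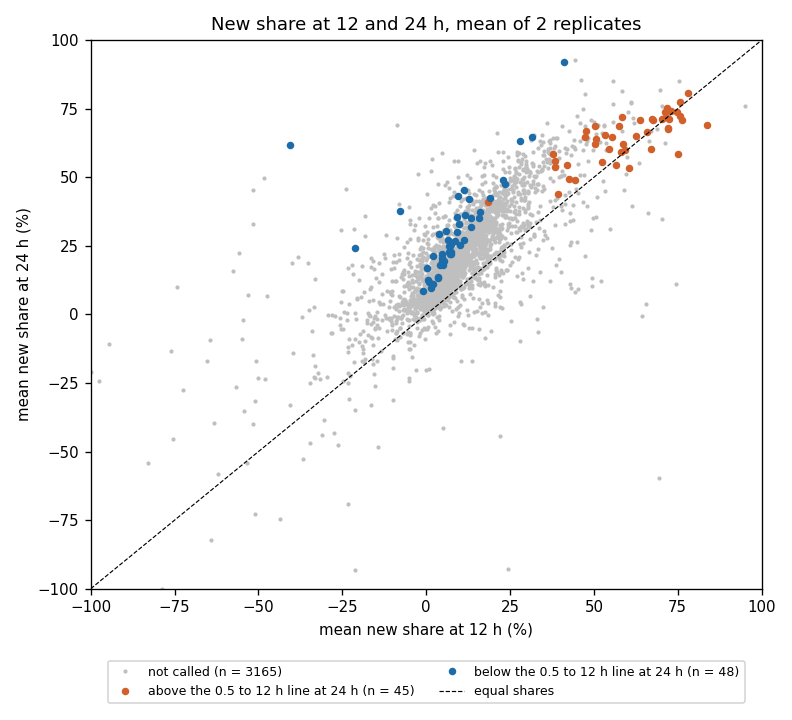
Mean new share (%) at 24 h against that at 12 h, 1 point per protein, with the dashed line marking equal shares. Proteins above the 0.5 to 12 h line (orange, n = 45) sit near equal shares at the upper right, those below it (blue, n = 48) sit above the dashed line mostly at low shares (26 of 3258 proteins lie outside the axes).

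Replacement was read beside the levels of old and total protein against the light cells, after each run was scaled by the median of the total over 2602 proteins. That scaling matters: the run factor fell on the log2 scale by 0.40 in replicate 1 and by 0.56 in replicate 2 from 0 to 24 h, and without it the median change of total protein was −0.39 per 24 h in place of 0.01. Old protein (M/L) fell in 1928 of 3675 proteins (52.5%) and rose in 398 (10.8%). Total protein fell in 552 of 3490 (15.8%) and rose in 685 (19.6%). Without the run factor M/L rose in 32 and total protein in 52. Of the faster proteins M/L fell in 647 of 822 (78.7%), and total protein fell in 171 and rose in 199. Of the slower proteins M/L fell in 284 of 672 (42.3%), and total protein fell in 132 and rose in 197.

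Some fast proteins accumulated, so that their new share holds added protein as well as replaced protein. On the log2 scale per 24 h, total protein rose by 2.49 ± 0.18 for Mmp12, 2.34 ± 0.27 for lipoprotein lipase Lpl, 1.62 ± 0.14 for Cd36 and 1.22 ± 0.07 for Ctsb. Lpl had new shares of 71.2% and 76.1% at 6 h and 78.3% and 76.8% at 24 h. Others were lost. The eosinophil granule protein Prg2 fell by 1.64 ± 0.09, S100a9 by 1.59 ± 0.09, the proliferation antigen Mki67 by 1.44 ± 0.13 and Hn1 by 1.41 ± 0.29. For S100a9 the new share at 24 h was 25.1% and 25.1%, while old protein fell by 1.99 ± 0.09 on the log2 scale, so old protein fell by more than new protein was added. The replication clamp Pcna, with a half-time of 25.6 h (23.5 to 28.0), fell by 0.63 ± 0.05. With the deposited normalised ratios Pcna instead rose, by 0.28. Total protein of all 6 MCM subunits fell, with a median of −0.60. The other rises and falls named in this paragraph kept their sign without the run factor and with the deposited normalised ratios.

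In other lists the old protein rose relative to the median protein. Total protein rose in 38 of 40 lysosomal hydrolases (median 0.94) and M/L in 37 (median 0.71). Without the run factor these counts were 17 and 8, and the medians 0.54 and 0.32. In TCA cycle and matrix enzymes total protein rose in 31 of 34 and M/L in 28, and without the run factor in none, with medians of 0.04 and −0.05. In the 6 linker histones total protein and M/L rose in all, with medians of 2.05 and 2.12, and without the run factor in 5 and 6, with medians of 1.65 and 1.72. The M label was supplied only before the switch, and what a later rise of M/L reflects was not tested.

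**Figure D5:**
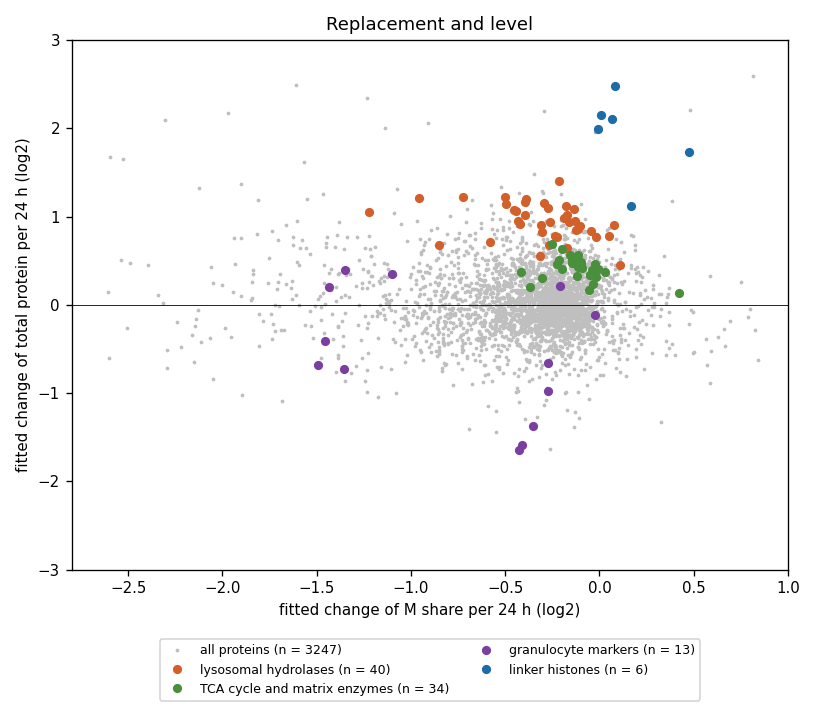
Fitted change of total protein per 24 h (log2, relative to the median protein) against the fitted change of the M share per 24 h (log2, more negative is faster replaced), 1 point per protein. Lysosomal hydrolases (orange) lie above 0 at slow and fast replacement, linker histones (blue) lie between 1 and 2.5 with no replacement, and granulocyte markers (purple) reach below −1.5 (18 of 3247 proteins lie outside the axes).

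The cultures held proteins of several myeloid cells. Markers of dendritic cells, 11 of 18 names listed, made up 0.0665% and 0.0555% of the iBAQ sum at 0 h in replicates 1 and 2, and those of macrophages, 12 of 15, made up 1.34% and 0.998%. Granulocyte markers, 18 of 18 (17 with iBAQ at 0 h), made up 4.97% and 4.70%. These sums rest largely on few proteins and do not give shares of cells. The log10 iBAQ was 10.6 for S100a9 and 10.0 for S100a8, against at most 9.34 for the other granulocyte markers. It was 10.1 for the macrophage marker Lyz2, against at most 9.01 for the others. Of lymphocyte markers 2 of 18 were in the table (Thy1 and Lck) with at most 8.88e-05%, and of erythroid and platelet markers 3 of 15 with 0.00726% and 0.00731%. Of the dendritic cell markers, Itgax, H2-Aa, Cd74 and H2-Ab1 lay at percentiles 67.9, 69.7, 89.0 and 91.1 of iBAQ at 0 h. Cst3 and Fscn1 lay at 77.8 and 71.0. Lower were Irf4 (49.2), H2-Eb1 (38.2), Irf8 (20.5), Cd86 (15.5) and Cd40 (10.4), and the other listed names were not in the table. Dendritic cell markers were faster in 5 of 7 fitted, and total protein rose in 4 of 7. Macrophage markers were faster in 6 of 11, and total protein rose in 9. Without the run factor total protein rose in 1 and 4. Granulocyte markers were faster in 8 of 13 and slower in 1. Their total protein fell in 8 (median −0.66, and 0.13 with the deposited normalised ratios) and rose in 2. Over all proteins 25.2% were faster and 20.6% slower, and total protein fell in 15.8% and rose in 19.6%. Without the 24 h runs, 4 dendritic cell, 7 macrophage and 5 granulocyte markers were faster, beside 450 of 3260 proteins. The half-time at the median slope was then 106 h for granulocyte markers and 106 h for all proteins. Lysozyme Lyz2 had a half-time of 35.0 h (32.8 to 37.6), and the granule protein Ngp had 16.7 h (15.6 to 18.0). Whether a change in the mix of cells moved these levels was not tested.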

How the data were processed

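Proteins of mock-treated cells were measured by mass spectrometry in 22 trypsin runs. The deposited table gives per run the ratios H/M, H/L and M/L, as normalised and un-normalised values per the file headers. It also gives the count of H/M pairs behind each ratio and summed intensities, with iBAQ intensities, per the file headers. The column names are those of MaxQuant; neither the sources used here nor the headers give its version, settings or database. The deposited normalised H/M had run medians from 0.232 to 3.36 and was used only as an alternative. Column names were matched to sample titles, and H and M of a run are separate samples.

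Slopes were fitted with limma 3.58.1 in R 4.3.3 (lmFit, eBayes, Benjamini-Hochberg over all proteins fitted) to the 20 runs after 0 h, with a free intercept and no replicate term. Of 3292 proteins that passed the filter, 32 had too few values once H/M at 0 h was subtracted (at least 12 of 20 needed) and were not fitted. Centring used the median of 2607 proteins measured in all 20 runs. M/L and total protein were fitted to all 22 runs. The script was tested on simulated data.

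Members, lists and tests were chosen with earlier results of these data known, and lists are described by counts only. Proteins were named by rule, in groups with 1 gene name, at least 2 unique peptides and H/M in all 20 later runs: the 14 steepest and 14 shallowest slopes among those called on 1 side in both replicates, the markers, up to 3 steepest and 2 shallowest per list (60 lists), the farthest member per complex of at least 5, 5 departures each way, 4 total slopes each way, the 5 most abundant proteins, and the cell type markers; where there was no room, fewer are named. Precision depends on the number of pairs per protein and run. Runs were not paired by replicate number in the main fits. Alternatives covered the subtraction, intercept, times, ratio, filters, weights, replicates and run factor.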

Additional observations from a re-analysis of the deposited data

How the results depend on the processing

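The 24 h runs, the ratio column and the number of runs decided most counts. Without the 24 h runs, 1196 slopes were called (2234 with them), 684 proteins were faster or slower (1494) with 65.8% of them faster, the median half-time was 106 h (84.2 h), M/L fell in 1110 and rose in 241, and total protein fell in 210 and rose in 259. With the deposited normalised ratios, 0 slopes and 0 departures were called, 216 proteins were faster or slower with 90.7% of them faster (55.0% in the main fit), M/L fell in 1210 and rose in 903, and total protein fell in 0 and rose in 2. Without the run factor, M/L rose in 32 and total protein in 52. The 93 departures at 24 h became 516 with the line forced through 0, 20 without runs before 4 h and 40 with summed intensities. The median half-time was 99.4 h with no subtraction and the 0 h runs in the fit, 99.0 h with no subtraction and no 0 h runs, 89.4 h with the line forced through 0, 78.2 h without runs before 4 h, 62.9 h with summed intensities, 89.6 h over proteins with H/M in all 20 later runs, and 90.8 h over those with H/M at 0 h of at most 0.25, a limit chosen after seeing the data. With 1 replicate left out throughout or at 24 h, 970 to 1238 proteins were faster or slower, 14 to 79 departed at 24 h, the median half-time was 82.8 to 91.4 h, and with 1 replicate left out throughout total protein fell in 339 to 386 and rose in 449 to 550. Without replicate 1, 614 faster and 436 slower proteins kept their call, and without replicate 2, 501 and 381. The causes of these shifts were not tested. The correlation of slope and abundance stayed between 0.17 and 0.24 under its alternatives.

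Replicate numbers were shared by all times. After each run was centred, deviations of same-numbered runs had a median correlation of 0.09 over 45 pairs of times (−0.16 to 0.48). Centring takes off shifts common to a run, so such shifts were not part of this check. The log2 run factor was lower in replicate 1 at every time, with −0.28 against 0.21 at 0 h and −0.68 against −0.35 at 24 h. With the replicate block, 2272 slopes were called, 1530 proteins were faster or slower and 101 departed at 24 h. M/L then fell in 1986 and rose in 426, and total protein fell in 620 and rose in 745.

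Of 95 named proteins, 10 changed side against the median protein under some alternative. The slope per h of Ldhb was −0.0070 with no subtraction and the 0 h runs in the fit, 0.038 with the line forced through 0 and 0.0052 with normalised H/M. With normalised H/M it was −0.0081 for Mki67, −0.016 for Ppia, −0.016 for Psmb6 and −0.027 for Tmsb4x. It was −0.0084 for Fau with summed intensities and −0.0039 for Rps27l with the line forced through 0. Without the 24 h runs it was 0.029 for Pole3, −0.0084 for S100a9 and 0.066 for Zbp1.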
